A study of Mus musculus with 22 samples.

Results

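The genes described here are the insulin-like growth factors Igf1 and Igf2, the receptors Igf1r and Igf2r, and the binding protein genes Igfbp2 to Igfbp7. They were chosen by symbol, and 10 of the 23361 genes in the expression matrix carry these names. The values are mRNA levels in the hippocampal CA1 region of 22 female mice, 1 library per mouse. Their background is given as Swiss Webster x DBA/C57BL6 F1. Mice ate a normal diet without restriction (AL) or a diet restricted in calories, at the expense of carbohydrates (CR), from young adulthood, and CA1 was microdissected at 5 months (5 AL and 5 CR mice) or 15 months (6 AL and 6 CR mice). No mouse carried an engineered allele, as far as the labels and methods say. CA1 was bulk tissue, so fewer cells of a type and less RNA per cell cannot be told apart in any value below.

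Insulin-like growth factors (IGFs) are small secreted relatives of insulin. They signal through the tyrosine kinase receptor encoded by Igf1r, which recruits adaptor proteins and switches on PI3 kinase and Akt, while the receptor encoded by Igf2r, also known as the cation-independent mannose 6-phosphate receptor, takes IGF2 up for degradation and carries enzymes to lysosomes. Binding proteins hold IGFs outside cells, lengthen their life there and release them when proteases cut them. In adult brain, Igf2 is known from choroid plexus and meninges, and restriction of calories is known to lower circulating IGF1.

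The matrix holds FPKM, fragments per kilobase of exon scaled to the fragments mapped in the library, so levels are per length and can be compared between genes. Changes were fitted with limma as differences of log2(FPKM + 0.1) between group means, for the 16978 genes whose FPKM averaged 0.1 or more, and a gene was called at a Benjamini-Hochberg adjusted p under 0.05 over those genes. Each fold change is on this log2(FPKM + 0.1) scale with its standard error (SE), and exact permutation tests are two-sided. The smallest p that division of the mice allows is 0.00216, or 0.00794 between the diets at 5 months. Comparisons share groups, since each age and diet group enters an age and a diet comparison. The labelled tissue was checked with 5 markers of CA1 pyramidal neurons (Wfs1, Fibcd1, Spink8, Pou3f1 and Man1a), and each was above 0 in every library. Their summed FPKM lay between 149 and 346 in AL mice at 5 months, 191 and 298 in CR mice at 5 months, 86.5 and 154 in AL mice at 15 months, and 47.4 and 291 in CR mice at 15 months. A region score, the mean log2 level of 8 neocortex and subiculum markers minus that of the CA1 markers, ran from -2.96 to -1.46 in AL mice at 5 months and from -0.76 to 1.38 in AL mice at 15 months. In CR mice the bounds were -3.01 and -2.27 at 5 months, then -2.55 and 0.45 at 15 months. Choroid plexus markers stood highest in CR mice at 5 months, replicates 4 and 3, and meningeal and perivascular fibroblast markers in AL replicate 1 at 15 months. The levels and changes of Igf2 and Igfbp2, and the calls that these 3 libraries decide, are given with and without them.

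Binding protein mRNAs were the most abundant of the group. Averaged over 22 libraries, Igfbp4 had an FPKM of 41.3 and Igfbp5 of 37.5. Igfbp4 was above Igfbp5 in 10 of 22 libraries, mostly at 5 months, so this pair has no order common to both ages. Igfbp2 followed at 32.2, Igf2 at 22.5, Igfbp6 at 18.5, Igfbp7 at 14.7 and Igfbp3 at 10.2. Igf2 exceeded Igfbp6 in 7 of 22 libraries. Its mean was 14.5, below Igfbp6 and next to Igfbp7 at 14.4, without CR replicate 4 at 5 months, and 10.3 without the 3 libraries named above, where Igfbp2 averaged 18.996 beside Igfbp6 at 19.1. Igf1r and Igf2r lay side by side at 6.65 and 6.60, with Igf1r the higher in 10 of 22 libraries. Igf1 was lowest at 2.02 and was below Igf2r in 22 of 22. Igf2 varied 45.8-fold and Igfbp2 28.0-fold between their lowest and highest libraries, against 1.76-fold for Igf2r and 1.91-fold for Igf1r. Without CR replicate 4 at 5 months these ranges were 13.3-fold for Igf2 and 10.06-fold for Igfbp2, and without the 3 libraries 5.37-fold and 4.13-fold, while Igfbp4 varied 5.51-fold with or without them.

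**Figure D1:**
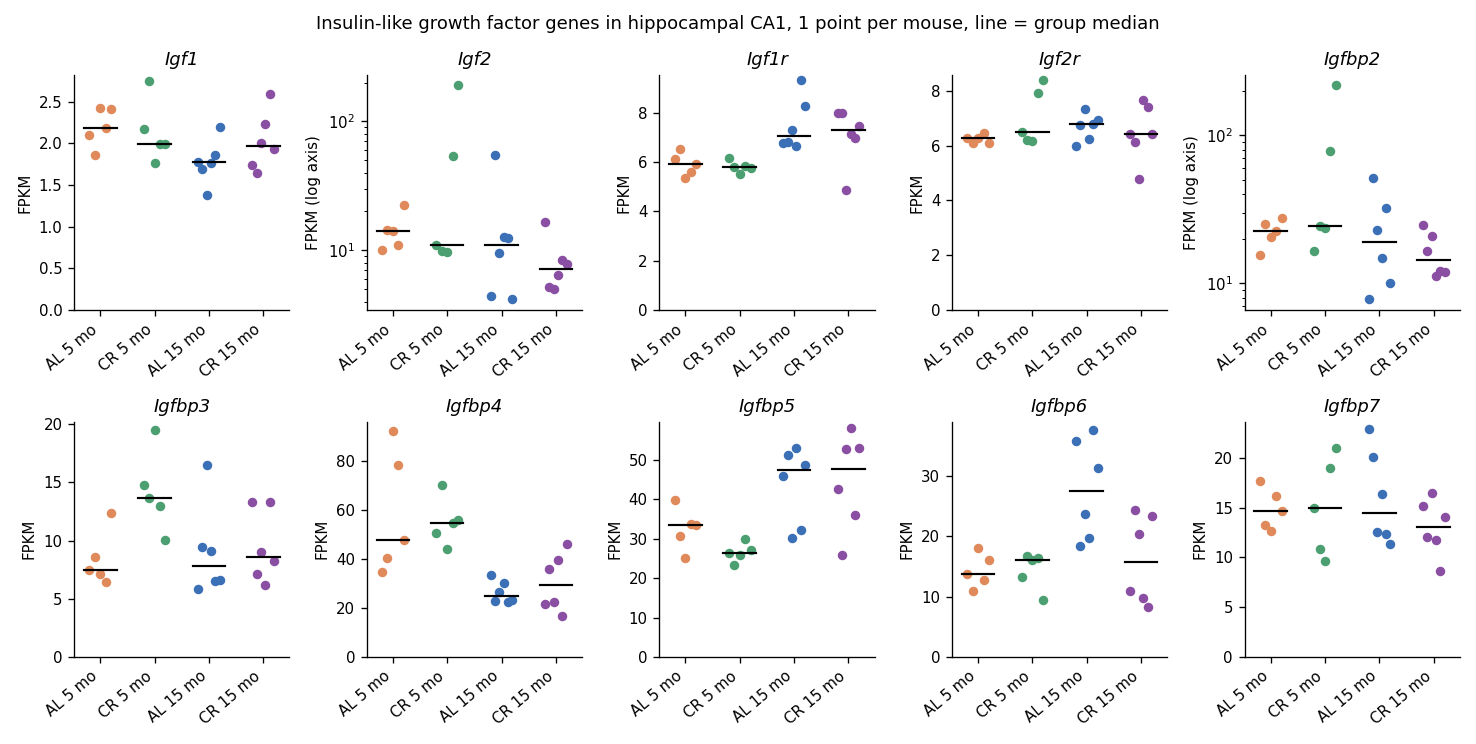
FPKM of each gene (vertical axis, logarithmic for Igf2 and Igfbp2 and linear from 0 for the others) in the 4 groups, with 1 point per mouse and a line at the group median. Igfbp4 in AL mice lies between 34.7 and 92.2 at the younger age and between 22.3 and 33.2 at the older, and Igf2 and Igfbp2 have a few libraries far above the rest.

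Igf1 encodes the growth hormone-responsive ligand, which brain cells also make. Its FPKM in AL mice at 5 months was 2.10, 1.86, 2.42, 2.18 and 2.41, and in CR mice at 5 months 2.17, 2.76, 1.77, 1.99 and 1.99. At 15 months it ran from 1.39 over a median of 1.77 to 2.20 in AL mice and from 1.65 over 1.97 to 2.59 in CR mice. The 4 ranges overlap. Igf1 did not pass the test for age in AL mice (log2 fold change -0.29, SE 0.13, adjusted p = 0.113, exact permutation p = 0.0303), where 4 of 6 older mice were below the lowest younger one. Between the diets the log2 difference, CR minus AL, was 0.17 at 15 months (95% confidence interval -0.09 to 0.43) and -0.05 at 5 months (-0.33 to 0.24).

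Igf2 encodes the second ligand. It lies on chromosome 7 from 142650766 to 142666816 on the minus strand of GRCm38 (mm10), and its exons overlap those of Gm49394 on the same strand and Igf2os on the opposite one, so reads from these genes cannot be told apart in libraries that do not mark strand. Igfbp2, on chromosome 1 from 72824503 to 72852474, encodes a binding protein with a preference for IGF2. The pair is shown with RefSeq promoter windows (250 bases before to 50 after a transcript start, GRCm38.p6) because their highest libraries coincide. Capitals mark the GC box GGGCGG and the E box CACGTG, searched on both strands. The windows are chr7:142657447-142657746, minus strand, which is 1 of 4 for Igf2, and chr1:72824230-72824529, plus strand, which is 1 of 2 for Igfbp2.
Igf2: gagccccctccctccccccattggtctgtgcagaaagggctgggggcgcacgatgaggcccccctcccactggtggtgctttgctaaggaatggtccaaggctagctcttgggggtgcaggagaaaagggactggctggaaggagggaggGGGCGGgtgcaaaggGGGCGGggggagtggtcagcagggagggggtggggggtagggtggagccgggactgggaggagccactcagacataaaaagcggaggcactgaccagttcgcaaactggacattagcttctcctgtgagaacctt
Igfbp2: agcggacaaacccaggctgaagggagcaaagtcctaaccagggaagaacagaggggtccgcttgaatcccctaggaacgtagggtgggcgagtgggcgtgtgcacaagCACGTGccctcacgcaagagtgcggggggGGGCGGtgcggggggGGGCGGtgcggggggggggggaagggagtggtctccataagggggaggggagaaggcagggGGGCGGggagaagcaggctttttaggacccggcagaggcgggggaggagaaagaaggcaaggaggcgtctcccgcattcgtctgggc

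The Igf2 window holds 2 GC boxes and the Igfbp2 window 3 GC boxes and 1 E box. GC boxes occur in 35.7% and E boxes in 7.15% of all 32851 promoter windows of this length, so these matches describe the letters and no more.

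Igf2 FPKM was 10.1, 14.3, 14.0, 11.0 and 22.3 in AL mice at 5 months, and 11.0, 9.95, 9.74, 54.2 and 190.1 in CR mice at 5 months (replicates 0 to 4 in order). At 15 months it ran from 4.15 over a median of 11.0 to 55.1 in AL mice and from 4.96 over 7.10 to 16.6 in CR mice. CR replicates 3 and 4 at 5 months and AL replicate 1 at 15 months stood above every other library. Igfbp2 FPKM was 15.4, 25.1, 20.6, 22.6 and 27.8 in AL mice at 5 months, and 16.5, 24.4, 23.6, 78.2 and 217.6 in CR mice at 5 months. At 15 months it ran from 7.77 over 18.97 to 51.2 in AL mice and from 11.2 over 14.3 to 24.6 in CR mice. Its 3 highest libraries were the same 3 as for Igf2, and CR replicate 4 was the highest for both genes.

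Neither gene was called in any comparison. In CR mice the log2 age change was -1.76 (SE 0.69, adjusted p = 0.177, exact permutation p = 0.0346) for Igf2 and -1.50 (SE 0.54, adjusted p = 0.142, exact permutation p = 0.0238) for Igfbp2. Without the 3 libraries these became -0.44 (adjusted p = 0.673) and -0.45 (adjusted p = 0.628). In AL mice the log2 age change of Igf2 went from -0.36 (adjusted p = 0.747) to -0.83 (adjusted p = 0.115) without the 3 libraries. That of Igfbp2 went from -0.22 (adjusted p = 0.809) to -0.51 (adjusted p = 0.299), so these 2 values became larger. Between the diets at 5 months, where mean Igf2 was 55.0 ± 77.9 (SD, n = 5) in CR and 14.3 ± 4.80 (SD, n = 5) in AL mice, the log2 difference went from 0.89 to -0.43 without them. The same difference for Igfbp2 went from 1.001 to -0.046. The diet difference at 15 months went from -0.51 to -0.04 for Igf2 and from -0.28 to 0.0087 for Igfbp2. The difference between the age changes went from -1.40 to 0.39 for Igf2 and from -1.28 to 0.055 for Igfbp2.

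The 8 choroid plexus markers (Folr1, Kcnj13, Cldn2, Aqp1, Slc4a5, Otx2, Clic6 and Sostdc1) stood highest in CR replicates 4 and 3 at 5 months. Their summed FPKM was 295.1 in CR replicate 4 and 67.8 in CR replicate 3 at 5 months, against 11.6 to 14.8 in the other 3 mice of that group. In AL replicate 1 at 15 months it was 6.95, beside 6.70 in AL replicate 2 of that age. It lay between 4.41 and 35.2 in AL mice at 5 months, 0.80 and 6.95 in AL mice at 15 months, and 1.13 and 4.59 in CR mice at 15 months, and no marker of the list was at 0 in any library. Of the 8 markers, 4 fell with age in AL mice and 6 fell with age in CR mice, with none higher. Without the 3 libraries 5 fell with age in AL mice and 2 in CR mice. The 10 meningeal and perivascular fibroblast markers summed to 171.8 in AL replicate 1 at 15 months and to between 14.2 and 100.4 in the other 5 mice of that group. Their sums lay between 25.2 and 69.2 in AL mice at 5 months, 23.3 and 135.0 in CR mice at 5 months, and 23.9 and 108.4 in CR mice at 15 months. None of these 10 markers was called in any comparison or at 0 in any library. The part of these cells in Igf2 and Igfbp2 was not tested. With the choroid plexus score as a covariate, the log2 age change in CR mice was 1.28 (adjusted p = 0.626) for Igf2. For Igfbp2 it was 0.77 (adjusted p = 0.783). That fit called 0 of all 16978 genes for age in CR mice. The lowest score of the younger CR mice, 0.26, was above the highest of the older ones, -1.03. Age and this score cannot be told apart in CR mice, so neither value can be read as an adjusted age change. The meningeal scores of CR mice overlapped, at 0.17 to 1.52 at 5 months and 0.29 to 1.78 at 15 months. With that score as a covariate the log2 age change in CR mice was -1.84 (adjusted p = 0.0608) for Igf2. For Igfbp2 it was -1.55 (adjusted p = 0.0775).

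**Figure D2:**
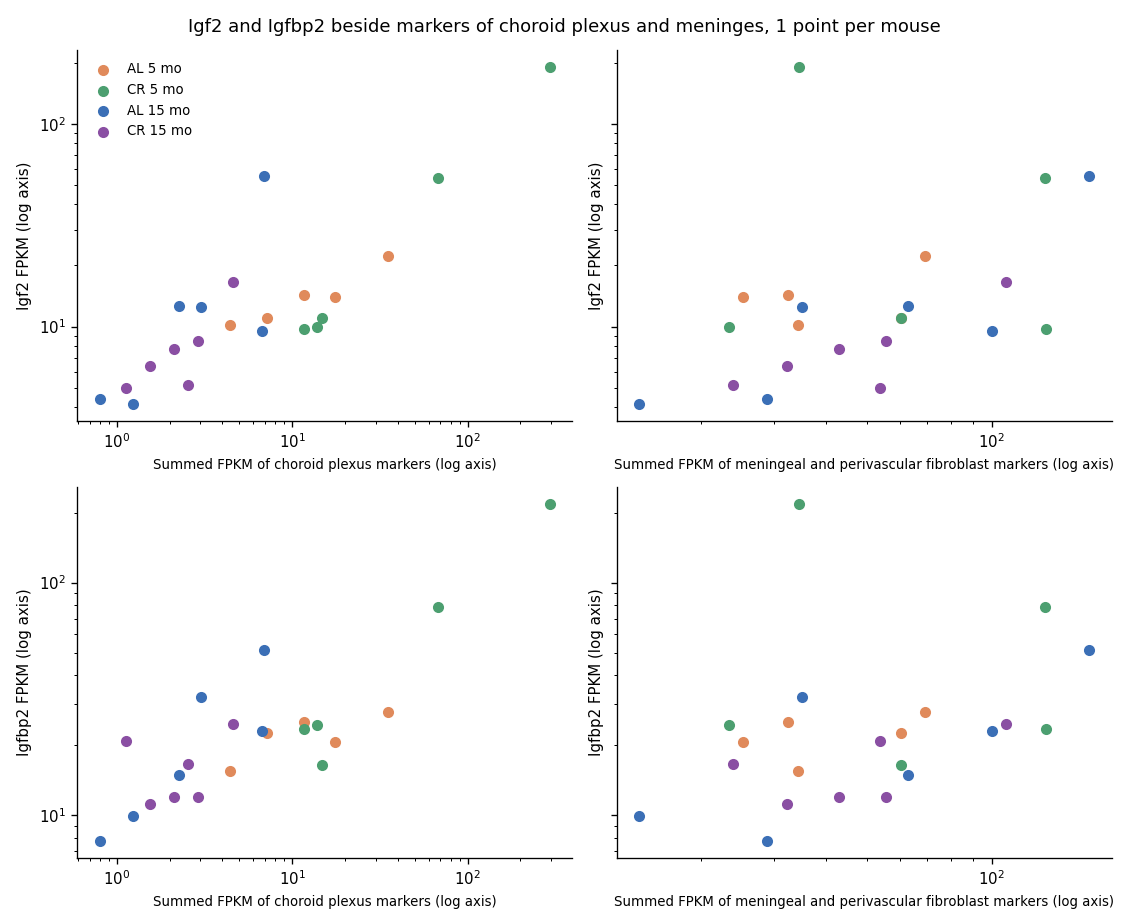
FPKM of Igf2 (top) and Igfbp2 (bottom) against the summed FPKM of choroid plexus markers (left) or meningeal and perivascular fibroblast markers (right), all axes logarithmic, with 1 point per mouse coloured by group. CR replicates 3 and 4 at 5 months lie at the upper right on the left, and AL replicate 1 at 15 months, with an Igf2 FPKM of 55.1, lies farthest right on the right.

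Igf1r encodes the signalling receptor. Its FPKM in AL mice at 5 months was 6.14, 6.55, 5.35, 5.62 and 5.92, and in AL mice at 15 months it ran from 6.65 over a median of 7.06 to 9.32. The 2 groups did not overlap. Igf1r rose with age in AL mice by 0.33 in log2 (SE 0.11), with an adjusted p of 0.0360 and an exact permutation p of 0.00433, a ratio of mean FPKM of 1.27. In CR mice it was 6.16, 5.80, 5.51, 5.86 and 5.76 at 5 months and ran from 4.88 over 7.30 to 8.01 at 15 months. Here 5 of 6 older mice were above the highest younger one and replicate 2 was below the lowest, and the change of 0.26 did not pass the test (SE 0.11, adjusted p = 0.206). Without that library it was 0.36 (adjusted p = 0.0213). The age changes under the 2 diets differed by -0.07 (CR minus AL, 95% confidence interval -0.40 to 0.25, adjusted p = 0.920).

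The call for Igf1r in AL mice was one of the less firm ones. It was lost with the medians of all libraries set equal (0.29, adjusted p = 0.0614), under quantile normalization (0.27, adjusted p = 0.0899), with the choroid plexus score as a covariate (0.36, adjusted p = 0.0729), and without the 3 libraries of high choroid plexus or meningeal score (0.36, adjusted p = 0.0519). It was also lost without AL replicate 2, 3 or 4 at 5 months or AL replicate 4 or 5 at 15 months, over which the lowest value was 0.27. The diet differences of Igf1r were -0.09 at 15 months (95% confidence interval -0.31 to 0.12) and -0.02 at 5 months (-0.26 to 0.22).

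Igf2r encodes the clearing receptor and was the steadiest of the group in AL mice at 5 months, where it was 6.26, 6.08, 6.28, 6.46 and 6.09 FPKM. In CR mice at 5 months it was 6.48, 6.21, 6.18, 7.91 and 8.40, with the higher 2 values in replicates 3 and 4. At 15 months it ran from 5.98 to 7.32 in AL mice and from 4.78 to 7.67 in CR mice. No comparison called it, and its log2 changes lay between -0.12 and 0.16. Over its 4 comparisons of 2 groups, the 95% confidence intervals reached from -0.34 to 0.39. Igf1r exceeded Igf2r on average in AL mice at 15 months (ratio 1.13 ± 0.14, SD, n = 6) and was below it in younger AL mice (0.95 ± 0.09, SD, n = 5), with overlapping ranges.

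Igfbp4 and Igfbp6 were the binding protein genes with the largest fitted age changes in AL mice, in opposite directions. Igfbp4 (chromosome 11, 99041244 to 99054392, plus strand) encodes a binding protein that restrains IGF action until the protease PAPP-A cuts it, and Igfbp6 (chromosome 15, 102144362 to 102149511, plus strand) encodes one that strongly prefers IGF2. Their promoter windows, chr11:99040994-99041293 and chr15:102143936-102144235, both plus strand, are shown because they are the 2 of 14 windows of the group that hold the letters TATAAA on either strand, marked in capitals. The RefSeq window of Igfbp6 ends before the GENCODE start of the gene. These letters occur in 13.6% of all windows, and in the Igfbp6 window they are read on the opposite strand.
Igfbp4: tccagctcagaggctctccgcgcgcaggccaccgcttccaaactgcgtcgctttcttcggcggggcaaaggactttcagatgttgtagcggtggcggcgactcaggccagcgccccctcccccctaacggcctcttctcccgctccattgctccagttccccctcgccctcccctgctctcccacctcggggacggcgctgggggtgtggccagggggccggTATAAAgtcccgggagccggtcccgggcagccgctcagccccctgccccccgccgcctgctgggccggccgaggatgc
Igfbp6: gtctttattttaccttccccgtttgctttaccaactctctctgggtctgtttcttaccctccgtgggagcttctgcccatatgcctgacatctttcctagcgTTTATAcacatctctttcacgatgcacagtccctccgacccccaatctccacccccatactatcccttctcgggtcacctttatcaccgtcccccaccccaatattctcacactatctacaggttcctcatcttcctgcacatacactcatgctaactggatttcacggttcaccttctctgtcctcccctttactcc

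Igfbp4 FPKM in AL mice at 5 months was 34.7, 40.4, 92.2, 78.2 and 47.8, and in AL mice at 15 months it ran from 22.3 over a median of 24.9 to 33.2. Every older mouse was below every younger one. Igfbp4 fell by 1.06 in log2 (SE 0.26), with an adjusted p of 0.00716 and an exact permutation p of 0.00216, the smallest possible, and mean FPKM at 15 months was 0.450 of that at 5 months. In CR mice it was 50.7, 69.97, 44.1, 54.6 and 55.8 at 5 months and ran from 16.7 over 29.2 to 46.0 at 15 months, with 5 of 6 older mice below the lowest younger one. The change of -0.93 there missed the threshold (SE 0.26, adjusted p = 0.0516, exact permutation p = 0.0108), and it passed in 5 of the 22 fits that left out 1 library (AL replicate 0, 2 or 3 at 5 months, or CR replicate 3 or 5 at 15 months). The 2 age changes differed by 0.13 (95% confidence interval -0.63 to 0.89, adjusted p = 0.944). Between the diets Igfbp4 differed by 0.13 at 15 months (95% confidence interval -0.39 to 0.64) and by -0.004 at 5 months (-0.57 to 0.56).

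Igfbp6 FPKM was 13.8, 10.8, 18.1, 12.8 and 16.0 in AL mice at 5 months, and 18.4 over a median of 27.5 to 37.5 in AL mice at 15 months. The 2 groups did not overlap. It rose by 0.92 in log2 (SE 0.28), with an adjusted p of 0.0240, an exact permutation p of 0.00649 and a ratio of mean FPKM of 1.94. In CR mice it was 13.3, 16.7, 16.1, 16.4 and 9.35 at 5 months and ran from 8.21 over 15.6 to 24.3 at 15 months, a change of 0.07 (SE 0.28, adjusted p = 0.933). The call in AL mice was lost without AL replicate 1 at 5 months or AL replicate 0 or 4 at 15 months (lowest value 0.82), and with the choroid plexus score as a covariate (0.69, adjusted p = 0.145). The older CR mice fell into 3 of 8.21 to 10.9 and 3 of 20.4 to 24.3. The difference between the age changes, -0.85 (SE 0.39, 95% confidence interval -1.66 to -0.04), did not pass the test (adjusted p = 0.639).

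At 15 months Igfbp6 was lower in CR than in AL mice by a fitted -0.85 (SE 0.26, 95% confidence interval -1.40 to -0.30), with mean FPKM of 16.2 ± 7.31 (SD, n = 6) against 27.7 ± 8.26 (SD, n = 6). None of the 6 CR mice reached the AL median and 3 of them were below the lowest AL mouse. The exact permutation p was 0.0411, and the adjusted p of 0.118 missed the threshold. Without CR replicate 5 the difference was -0.99 and the adjusted p was 0.0496, in a fit that called 492 of all genes in this comparison against 126 with that library. The adjusted p over the alternatives ran from there to 0.416, which was with the region score as a covariate (-0.80). At 5 months the diets differed by -0.002 (95% confidence interval -0.60 to 0.60). The paper lists Igfbp6 among the genes lowered by CR in older mice and raised with age under AL. It reports both changes by sequencing, called with Cuffdiff, and by NanoString counting. The NanoString counts were not examined here.

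These calls stood beside a difference in regional markers. With age in AL mice, 4 of the 5 CA1 markers fell, with a median log2 change of -2.02 over the list, and of the 8 neocortex and subiculum markers, such as Rorb and Cux2, 3 rose and 1 fell. Without the 3 libraries of high choroid plexus or meningeal score the same counts were 4, 3 and 0. The region scores of AL mice at 5 and 15 months did not overlap. The summed FPKM of the neocortex and subiculum markers lay between 80.1 and 121.1 in AL mice at 5 months, 96.1 and 179.5 in AL mice at 15 months, 65.4 and 110.1 in CR mice at 5 months, and 68.5 and 207.6 in CR mice at 15 months, with none at 0 in every library of a group. With the region score as a covariate the log2 age change in AL mice was -0.22 (adjusted p = 0.859) for Igfbp4, 0.79 (adjusted p = 0.540) for Igfbp6 and 0.15 (adjusted p = 0.793) for Igf1r, and that fit called 0 of all 16978 genes in this comparison (1962 at an unadjusted p under 0.05). Age and region score cannot be told apart in AL mice.

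**Figure D3:**
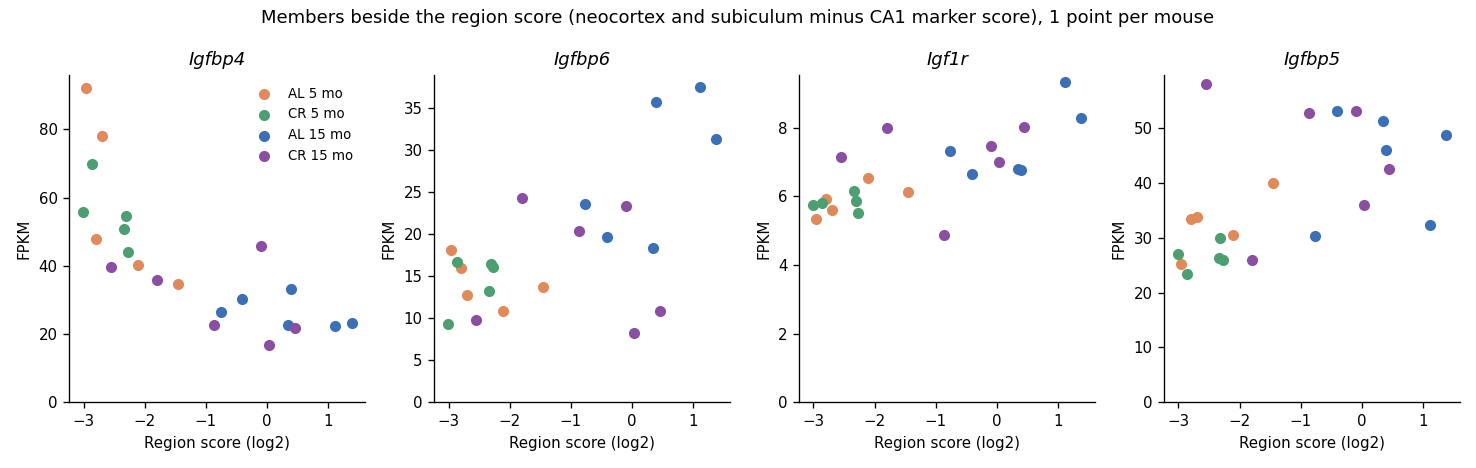
FPKM of Igfbp4, Igfbp6, Igf1r and Igfbp5 (vertical axes from 0) against the region score (log2 scale, neocortex and subiculum minus CA1 marker score), with 1 point per mouse coloured by group. AL mice at 5 months lie left of -1.46 or on it and AL mice at 15 months lie right of -0.76 or on it, while CR mice at 15 months spread between -2.55 and 0.45.

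Igfbp5 encodes a binding protein that also attaches to extracellular matrix. It lies tail to tail with Igfbp2 on chromosome 1, 5457 bases apart. Its FPKM in CR mice at 5 months was 26.4, 23.4, 25.9, 29.9 and 27.1, and at 15 months it ran from 25.9 over a median of 47.7 to 58.0. Of the 6 older CR mice, 5 were above the highest younger one and replicate 1 lay within their range. Igfbp5 rose with age in CR mice by 0.70 in log2 (SE 0.19), with an adjusted p of 0.0393, an exact permutation p of 0.0173 and a ratio of mean FPKM of 1.69. In AL mice it was 39.9, 30.6, 25.2, 33.7 and 33.4 at 5 months and ran from 30.3 over 47.4 to 53.0 at 15 months, a change of 0.40 that did not pass (SE 0.19, adjusted p = 0.128, exact permutation p = 0.0649). The 2 age changes differed by 0.30 (95% confidence interval -0.25 to 0.85, adjusted p = 0.795).

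The call for Igfbp5 in CR mice was close to the threshold. It was lost in the fit of only these 2 groups (adjusted p = 0.102), with the replicate number as a block (0.65, adjusted p = 0.0506), when only genes averaging 1 FPKM or more were tested (adjusted p = 0.0510), without the 3 libraries of high choroid plexus or meningeal score (0.77, adjusted p = 0.118), with the choroid plexus score as a covariate (0.56, adjusted p = 0.706) and with the region score (0.61, adjusted p = 0.294). Of all 16978 tested genes, this comparison called 570 in the fit reported, 0 with the choroid plexus score and 15 with the region score. The Igfbp5 call was kept in 13 of the 22 fits that left out 1 library, and the value in these 22 fits lay between 0.62 and 0.85. The 9 that lost it left out AL replicate 1 or CR replicate 0, 1, 2 or 4 at 5 months, or CR replicate 0, 2, 3 or 5 at 15 months. The diets differed in Igfbp5 by 0.02 at 15 months (95% confidence interval -0.35 to 0.39) and by -0.28 at 5 months (-0.69 to 0.12).

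Igfbp3 encodes the main carrier of IGFs in blood. Its FPKM at 5 months was 7.50, 8.61, 7.15, 6.43 and 12.4 in AL mice and 14.8, 13.6, 19.5, 13.0 and 10.05 in CR mice, where 4 of 5 were above the highest AL mouse. The difference of 0.75 (CR minus AL, SE 0.27, 95% confidence interval 0.20 to 1.31) had an exact permutation p of 0.0159 and an adjusted p of 1. At 15 months it ran from 5.86 over a median of 7.83 to 16.5 in AL mice and from 6.21 over 8.61 to 13.3 in CR mice, a difference of 0.12 (-0.39 to 0.62). Its age change was 0.04 in AL mice (adjusted p = 0.929) and -0.60 in CR mice (SE 0.25, adjusted p = 0.211, exact permutation p = 0.0433). None of these passed.

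Igfbp7 encodes a protein of vessel walls that binds IGFs weakly. Its exons overlap those of Polr2b on the opposite strand, so its values may hold reads of that gene. It ran from 12.7 to 17.7 FPKM in AL mice at 5 months, 9.60 to 21.0 in CR mice at 5 months, 11.3 to 22.9 in AL mice at 15 months and 8.66 to 16.4 in CR mice at 15 months. The 4 ranges overlap, and its log2 differences lay between -0.27 and 0.06 with no call.

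Counted over the group, age in AL mice called 3 of 10 genes, 2 higher and 1 lower. Of all tested genes this comparison called 20.6%, with 10.7% higher and 9.97% lower. The same 3 genes had groups that did not overlap, as had 14.0% of all genes, and 5 of 10 had an unadjusted p under 0.05, against 35.2%. Age in CR mice called 1 of 10, higher, against 3.36% of all genes (1.10% higher). Groups did not overlap for 0 of the 10, against 3.26%, and 6 of 10 had an unadjusted p under 0.05, against 18.0%. These 6 include Igf2 and Igfbp2. Their changes went from -1.76 to -0.44 and from -1.50 to -0.45 without the 3 libraries of high choroid plexus or meningeal score. Diet at 15 months called 0 of 10 with limma, against 0.742% of all genes (0.330% higher and 0.412% lower), and 1 of 10, Igfbp6, had an unadjusted p under 0.05, against 17.1%. Diet at 5 months called 0 of 10, against 0% of all genes, and 1, Igfbp3, had an unadjusted p under 0.05, against 4.65%. The groups overlapped for all 10 genes in both diet comparisons, where 0.984% of all genes at 15 months and 1.36% at 5 months had groups that did not. The age by diet interaction called 0 of 10, against 0%, and 1, Igfbp6, had an unadjusted p under 0.05, against 7.66%. The median log2 change of the 10 genes was 0.05 for age in AL mice, -0.15 for age in CR mice, -0.07 for diet at 15 months and -0.003 for diet at 5 months, beside medians of -0.002, 0.001, -0.001 and 0 over all tested genes.

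**Figure D4:**
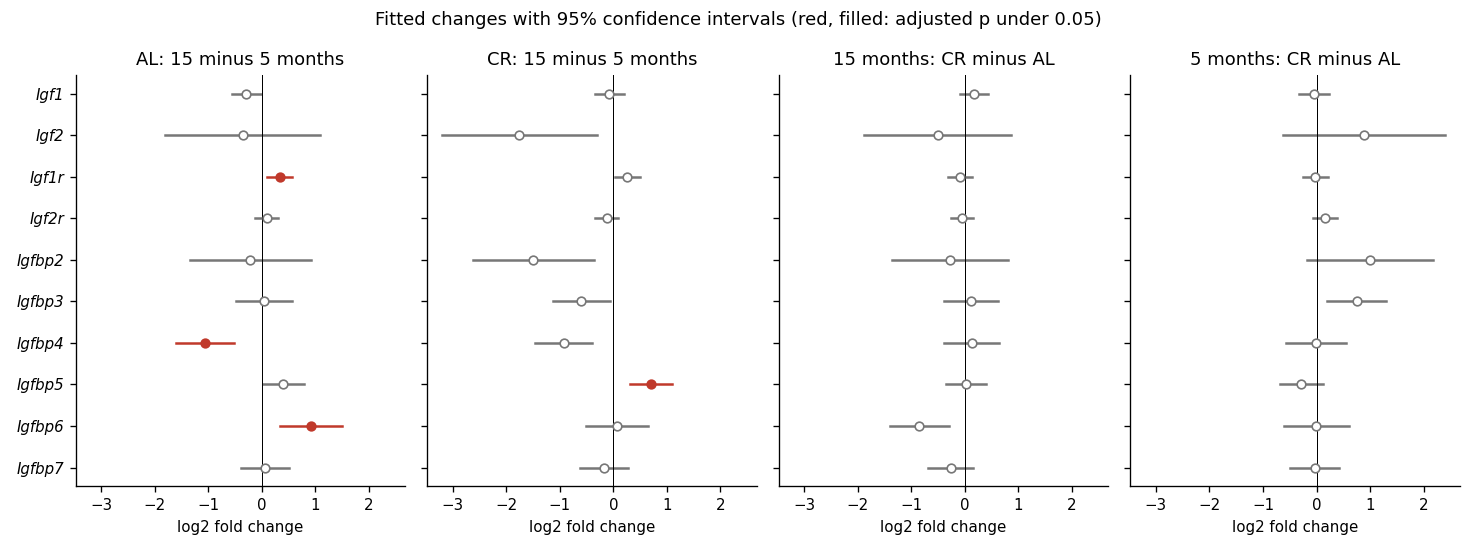
Fitted log2 fold change (horizontal axis) with its 95% confidence interval for each gene in 4 comparisons, the later age minus the earlier or CR minus AL, filled red where the adjusted p was under 0.05. Igf1r, Igfbp4 and Igfbp6 are filled for age in AL mice and Igfbp5 for age in CR mice, and the intervals of Igf2 and Igfbp2 are the widest.

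The makeup of binding protein mRNA is given as shares of the summed FPKM of the 6 genes, which at 5 months averaged 151 ± 22.1 (SD, n = 5) under AL and 197 ± 85.7 (SD, n = 5) under CR, and at 15 months 146 ± 15.4 (SD, n = 6) under AL and 130.1 ± 21.0 (SD, n = 6) under CR. In AL mice the Igfbp4 share was 37.6% ± 11.0 (SD, n = 5) at the younger age and 18.3% ± 3.42 (SD, n = 6) at the older one. Igfbp6 held 9.48% ± 1.42 (SD, n = 5) and 19.3% ± 6.25 (SD, n = 6). These shares describe the changes above on another scale and were not tested. In CR mice the Igfbp4 share was 31.0% ± 10.6 (SD, n = 5) at the younger and 23.0% ± 6.85 (SD, n = 6) at the older age, and Igfbp5 held 15.0% ± 4.54 (SD, n = 5) and 34.3% ± 7.19 (SD, n = 6). Igfbp2 held up to 63.8% in CR mice at 5 months, in replicate 4. Without replicates 3 and 4 the sum in that group averaged 145 ± 12.32 (SD, n = 3), the Igfbp4 share 37.6% ± 6.12 (SD, n = 3), the Igfbp5 share 17.6% ± 2.49 (SD, n = 3) and the highest Igfbp2 share 16.98%, and without AL replicate 1 at 15 months the sum in that group averaged 140.4 ± 8.43 (SD, n = 5). The ratio of Igfbp5 to Igfbp4 ran from 0.273 to 1.15 in AL and 0.334 to 0.587 in CR mice at 5 months, and from 1.15 to 2.26 in AL and 0.722 to 2.34 in CR mice at 15 months. Igfbp5 was therefore mostly the lower of the pair at 5 months and mostly the higher at 15 months.

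**Figure D5:**
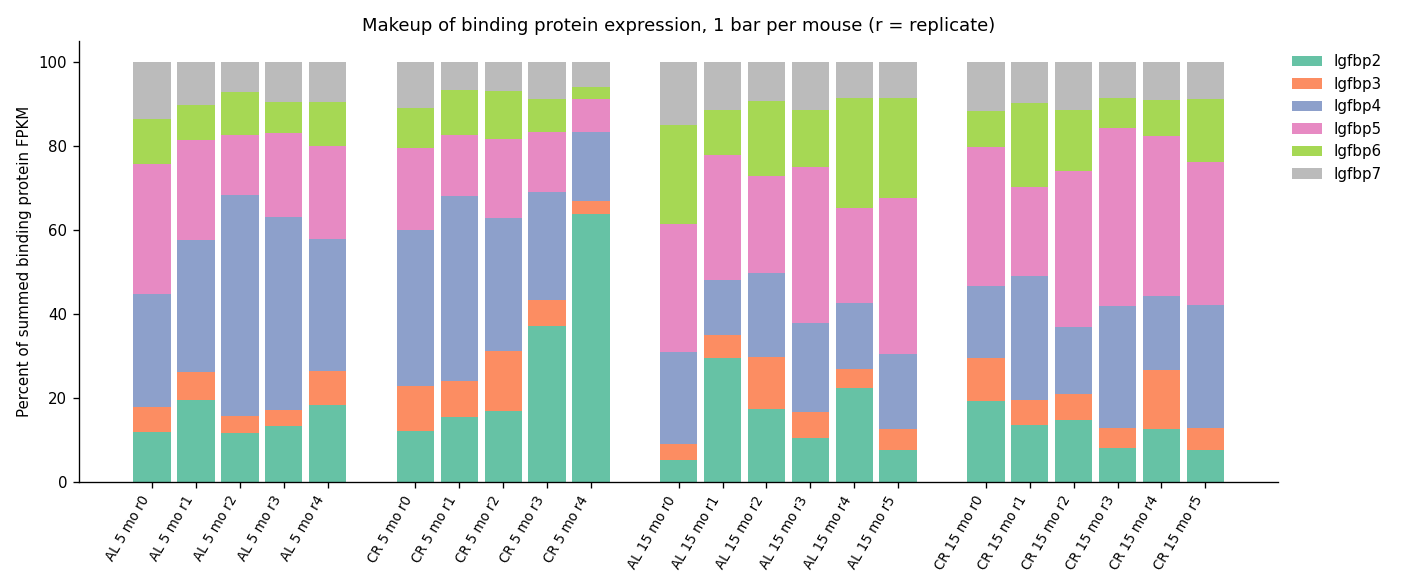
Share of each of 6 genes in the summed binding protein FPKM (vertical axis, percent from 0), with 1 bar per mouse grouped by diet and age. Igfbp4 averages 37.6% in AL mice at 5 months and 18.3% at 15 months, and Igfbp2 takes up to 63.8% in 1 CR mouse at 5 months.

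Among the other genes of the pathway, 27 of 28 listed were in the matrix and 21 were tested. Igfbp1, Igfals, Insrr, H19, Igf2bp1 and Igf2bp2 averaged below an FPKM of 0.1 over the libraries. With age in AL mice 4 rose and 3 fell, beside the 10.7% of all tested genes called higher and 9.97% called lower, and the 21 had a median log2 change of 0.12. With the region score as a covariate none of the 21 was called, as none of all 16978 was. By list, growth hormone input had 2 higher of 6 tested, the insulin receptor family and adaptors 2 higher of 7, the proteases of binding proteins and their inhibitors 2 lower of 6, other carriers and relatives 1 lower of 1, and the Igf2 locus and Igf2 mRNA binding 0 of 1. Of these 7, the 4 of lowest adjusted p are given with values.

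Stat5b encodes a transcription factor that growth hormone signalling activates. It rose by 0.90 (SE 0.14, adjusted p = 0.000442), from 4.36 ± 0.55 FPKM (SD, n = 5) to 8.17 ± 0.61 (SD, n = 6), and Ghr, the growth hormone receptor gene, rose by 0.68 (SE 0.14, adjusted p = 0.00234), from 2.97 ± 0.33 (SD, n = 5) to 4.83 ± 0.55 (SD, n = 6). Grb10, which encodes an adaptor that binds the insulin and IGF1 receptors, rose by 1.08 (SE 0.18, adjusted p = 0.000602), from 7.62 ± 0.76 (SD, n = 5) to 16.3 ± 2.35 (SD, n = 6). For each of these 3 genes the AL groups did not overlap, as for 14.0% of all genes. With the region score as a covariate the changes were 0.61 (adjusted p = 0.303) for Stat5b, 0.69 (adjusted p = 0.279) for Ghr and 0.63 (adjusted p = 0.373) for Grb10, and that was the 1 of 33 alternatives in which they were not called. In CR mice their age changes were 0.28 for Stat5b, 0.21 for Ghr and 0.26 for Grb10, with no call, and the differences between the age changes did not pass the test (adjusted p = 0.608, 0.637 and 0.608). Igfbpl1, a relative of the binding proteins, fell by 1.87 (SE 0.42, adjusted p = 0.00447) in AL mice and by 1.79 (SE 0.42, adjusted p = 0.0202) in CR mice, from a mean of 0.656 to 0.133 FPKM and from 0.466 to 0.0656 FPKM. It was the 1 pathway gene called with age in CR mice, where 3.36% of all genes were called. Its means at 15 months lie near the pseudocount of 0.1, and with a pseudocount of 1 its change in AL mice was -0.54 (adjusted p = 0.00799). The AL groups overlapped, at 0.236 to 1.18 FPKM at 5 months and 0.018 to 0.569 at 15 months. With the region score its change was -1.79 (adjusted p = 0.337) in AL and -1.74 (adjusted p = 0.189) in CR mice. The call in CR mice was also lost with the choroid plexus score (-1.89, adjusted p = 0.495, in a fit that called 0 of 16978 genes), with the replicate block (adjusted p = 0.0509), with a pseudocount of 1 (-0.45, adjusted p = 0.0695), and without CR replicate 1 or 2 at 5 months. In the fit reported, neither diet comparison nor the interaction called any of the 21. For diet at 15 months the lowest adjusted p was 0.0547, for the protease gene Htra1 (0.47, SE 0.11). Its FPKM was 49.2 to 79.8 in AL and 81.7 to 120.5 in CR mice, without overlap, as for 0.984% of all genes. That comparison called 1 of the 21 higher with a common median or the replicate block. Without CR replicate 0 at 15 months it called 1 higher and 2 lower, and without replicate 5 there 1 of each. Over all genes these fits called 138, 323, 732 and 492, against 126.

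The genes whose levels followed each member most closely over the 22 libraries were read off as a description, from genes averaging 1 FPKM or more. The points share libraries, with their composition and depth, and the correlations include the differences between groups. For Igf2 they were Kcnj13 (Pearson r = 0.96), Pcolce (0.94) and Slc2a12 (0.92), and for Igfbp2 Kcnj13 (0.91), Slc2a12 (0.91) and Gpx8 (0.90). Kcnj13 is one of the choroid plexus markers. Over the 19 libraries left without the 3 named above, the values with Igf2 were 0.90 for Kcnj13, 0.78 for Pcolce and 0.74 for Slc2a12, and those with Igfbp2 were 0.66 for Kcnj13, 0.58 for Slc2a12 and 0.68 for Gpx8. For Igfbp4 the closest genes were Rprml (0.90), Mafk (0.89) and Npbwr1 (0.89), for Igfbp6 Kcnk3 (0.86), Susd2 (0.85) and Stard10 (0.84), for Igfbp5 Grm2 (0.85), Mtmr10 (0.85) and Itfg2 (0.84), and for Igfbp3 Samd14 (0.88), Cpne2 (0.86) and Celf6 (0.84). For Igf1r they were Rps6ka3 (0.89), Tanc2 (0.89) and Ank2 (0.88), for Igf1 Acbd5 (0.84), 5730455P16Rik (0.82) and Zfp91 (0.79), for Igf2r Ncoa6, Akap9 and Ubap2l (0.77 each), and for Igfbp7 Lmf2 (0.83), Tinagl1 (0.83) and Gprc5c (0.80).

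All 10 genes had a RefSeq promoter window, 14 windows in all. Besides the letters described above, the GC box lay in 6 of the 14, of Igf1r, Igf2, Igf2r, Igfbp2 and Igfbp7, and the E box in 2, of Igf2r and Igfbp2. The forkhead letters TGTTTAC, in 3.65% of all windows, and the cAMP response letters TGACGTCA, in 1.79%, were in none of the 14. No match overlapped a different motif in the 4 windows printed.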

How the data were processed

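CA1 mRNA of 22 mice was sequenced as paired reads from TruSeq libraries, which do not mark strand. The authors used TopHat for alignment to mm10 and Picard to drop likely duplicates, and the deposited FPKM values come from their run of Cufflinks with fragment bias and multi-read correction; versions and the annotation are not given in the sources used here. Reads could not be recovered, since at most 8.20% of low genes of 3 library pairs lay on a common ratio (tolerance 0.002 on the log2 scale), so the depth behind single values is unknown and precision comes from the spread between mice. Median FPKM per library was 2.51 to 3.10, and 18281 to 19175 genes were above 0. No value column was left out.

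Genes whose FPKM averaged 0.1 or more were fitted as log2(FPKM + 0.1), 4 group means in 1 model, with limma 3.58.1 (eBayes with trend) in R 4.3.3, checked on simulated data. Contrasts were age under each diet, diet at each age and their interaction. Python 3.11.15 with pandas 2.3.3, numpy 2.4.6 and scipy 1.17.1 made the tables and matplotlib 3.10.9 the figures. Coordinates are from GENCODE M21 (GRCm38). The 10 genes, the 28 pathway genes, the 13 marker lists (80 genes, 78 in the matrix) and the tests were chosen with earlier results of these data known. Named are all 10 members, up to 4 called pathway genes of lowest adjusted p per comparison, and the 3 genes of highest Pearson r with each member. Htra1 was named after seeing the data. A list score is the mean log2(FPKM + 0.1) of its genes. Of the other lists, none was called in endothelium, pericyte and smooth muscle, interneuron or erythrocyte markers in any comparison, and age in AL mice called 1 lower of 4 in dentate granule cell, 2 higher of 4 in thalamus, 1 lower of 6 in microglia, 1 higher and 1 lower of 6 in astrocyte and 1 lower of 5 in oligodendrocyte markers, with no call of these in the other comparisons. Alternatives were another pseudocount, filters, scalings, separate fits, a replicate block, 3 score covariates, each library left out and, chosen after seeing the data, 3 libraries left out together.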

Additional observations from a re-analysis of the deposited data

Results flagged for a closer look

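Dixon's test, run on FPKM and not on log2 values, flagged a mouse in 5 of the 40 combinations of gene and group. Chance flags about 1 of 20 where values are normally distributed. That was not checked for FPKM, so 5 of 40 cannot be read as more than chance. Of the 5, 3 concern Igf2. In CR mice at 5 months replicate 4 was at 190.1 FPKM and the others between 9.74 and 54.2, in AL mice at 15 months replicate 1 was at 55.1 and the others between 4.15 and 12.6, and in CR mice at 15 months replicate 0 was at 16.6 and the others between 4.96 and 8.48. Igf1r in CR mice at 15 months was at 4.88 in replicate 2 and between 6.99 and 8.01 in the others. Igfbp3 in AL mice at 15 months was at 16.5 in replicate 2 and between 5.86 and 9.45 in the others.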

How the results depend on the processing

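Each of the 50 fitted differences was recomputed under up to 33 alternatives, 22 of them leaving out 1 library. Of 1640 values, 1525 kept their direction and their side of the threshold, 72 changed sign, 31 lost a call and 12 gained one, and no called value changed sign; the causes were not tested. With age in AL mice, 3 genes were called in the fit reported, 1 with the choroid plexus score as a covariate, 0 with the region score, and 1 to 3 when 1 library was left out, with 1 only without AL replicate 4 at 15 months. Igfbp4 was called in 32 of 33 alternatives, Igfbp6 in 28 and Igf1r in 23, and quantile normalization added Igf1. Igfbp6 was lost without AL replicate 1 at 5 months or AL replicate 0 or 4 at 15 months. With age in CR mice, 1 gene was called in the fit reported, 0 among genes averaging 1 FPKM or more, 2 with a common median, 2 with quantile normalization, 0 in the fit of the 2 groups alone, 0 with the choroid plexus score, 2 with the meningeal score, 0 with the region score, 0 without the 3 libraries of high score, and 0 to 2 without 1 library. It was 2 without AL replicate 0, 2 or 3 at 5 months, 0 without AL replicate 1 or CR replicate 0, 1, 2 or 4 at 5 months or CR replicate 0 at 15 months, Igf1r without CR replicate 2 at 15 months, and Igfbp4 without CR replicate 3 or 5 there. Diet at 15 months called 0 to 1 without 1 library, the 1 without CR replicate 5, and diet at 5 months and the interaction called 0 in each alternative run.

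Replicate numbers were shared between groups, but libraries of the same number did not deviate together, with correlations of -0.139 to 0.163 over 31 pairs and 2 above 0.1. With the replicate block, age in AL mice called the same 3 genes, and age in CR mice called Igfbp4 (adjusted p = 0.0488) and not Igfbp5 (0.0506), while Igfbp6 there was -0.023. Over all genes the block moved the count for diet at 15 months from 126 to 323.

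The values that changed sign were not called in the fit reported. Age and choroid plexus score cannot be told apart in CR mice, so their values with that score are not adjusted age changes. For age in AL mice, Igfbp3 was -0.0066 with a common median, -0.0055 with quantile normalization, -0.055 with the meningeal score and -0.13 with the region score; Igf2 was 1.19 and Igfbp2 0.94 with the choroid plexus score; Igfbp2 was 0.050 with the region score; and Igfbp7 was -0.0061 with the meningeal score and -0.019 without the 3 libraries. For age in CR mice, the choroid plexus score gave 1.28 for Igf2, 0.17 for Igf2r, 0.77 for Igfbp2, -0.38 for Igfbp6 and 0.16 for Igfbp7, the region score gave -0.015 for Igfbp6, and leaving out the 3 libraries gave 0.026 for Igf2r, -0.053 for Igfbp6 and 0.14 for Igfbp7. For diet at 15 months, Igfbp5 was -0.0065 with quantile normalization, Igfbp4 -0.23 with the region score and Igfbp2 0.0087 without the 3 libraries. For diet at 5 months, the choroid plexus score gave 0.0051 for Igf1, -0.48 for Igf2, -0.025 for Igfbp2 and 0.20 for Igfbp6, the region score 0.0049 for Igfbp6, and leaving out the 3 libraries 0.0077 for Igf1, -0.43 for Igf2, -0.046 for Igfbp2 and 0.12 for Igfbp6. For the interaction, Igf2 was 0.095 with the choroid plexus score, Igfbp4 -0.17 with the region score, and without the 3 libraries Igf2 was 0.39, Igfbp2 0.055 and Igfbp7 0.16.

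Without 1 library at a time, the genes whose sign changed ranged as follows. For age in AL mice, the range was Igfbp2 from -0.51 to 0.035, Igfbp3 from -0.15 to 0.19 and Igfbp7 from -0.056 to 0.15. For age in CR mice it was Igf1 from -0.15 to 0.017 and Igfbp6 from -0.079 to 0.23. For diet at 15 months it was Igf1r from -0.13 to 0.0076, Igf2r from -0.11 to 0.028, Igfbp2 from -0.53 to 0.0087, Igfbp4 from -0.011 to 0.28 and Igfbp5 from -0.080 to 0.17. For diet at 5 months it was Igf1 from -0.14 to 0.014, Igf1r from -0.055 to 0.016, Igfbp4 from -0.17 to 0.19, Igfbp6 from -0.096 to 0.14 and Igfbp7 from -0.17 to 0.11. For the interaction it was Igf1r from -0.11 to 0.028 and Igfbp4 from -0.059 to 0.29.

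Over all genes, counts moved by more than 1.5 times in several settings. Age in AL mice called 3502 in the fit reported, 2112 with the choroid plexus score and 0 with the region score. Age in CR mice called 570, against 304 among genes averaging 1 FPKM or more, 324 in separate fits, 0 with the choroid plexus score, 15 with the region score and 193 without the 3 libraries. Diet at 15 months called 126, against 77 with quantile normalization, 0 in the separate fit, 59 with the meningeal score, 4 with the region score and 6 without the 3 libraries. Without 1 library the count for age in AL mice ran from 2382 to 3919, and for age in CR mice from 331 to 775, with 331 without CR replicate 1 and 347 without CR replicate 4 at 5 months. For diet at 15 months it ran from 15, without AL replicate 0 or 4 or CR replicate 3 at that age, to 732 without CR replicate 0 there. It was 38 and 41 without AL replicate 1 or 5, 68 and 69 without AL replicate 2 or 3, 27, 26 and 73 without CR replicate 1, 2 or 4, and 492 without CR replicate 5 at that age, and 45, 50 and 57 without AL replicate 1, 2 or 4 and 69 without CR replicate 2 at 5 months. With a common median the split of calls for age in AL mice was 1441 higher and 2286 lower, against 1809 and 1693, and for diet at 15 months 87 and 51, against 56 and 70. With quantile normalization the splits were 1509 and 1845, and 52 and 25. Depth behind single values is unknown, so the spread between mice is the one measure of precision, and a group of 5 or 6 mice limits every interval given.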
